A study of Mus musculus with 12 samples.

Results

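Gastrin knockout mice infused with saline were set against wild-type mice, to see which transcripts of the acid-secreting stomach differ when the hormone is missing and not replaced. The members were the 3 arrays labelled Gastrin Knockout fundus and the 3 labelled wild type fundus, 6 of the 12 arrays of the series, and all probe sets other than the manufacturer's controls. The knockout mice were males, 2 months old, infused with saline for 1 week. The wild-type samples each pooled about 2 to 4 mice, and no infusion, sex or age is stated for them, so saline infusion, sex and age cannot be told apart from genotype. The other arrays, 3 from gastrin knockout mice infused with gastrin and 3 from gastrin-CCK double knockout mice, entered the fit only through the shared estimate of spread and are quoted below as levels. The sources used here do not give the strain, the construction of the knockout allele or the number of knockout mice per sample. Total RNA was taken from mucosa scraped off the fundus. No label says whether the 3 samples of each group were from separate animals, so p-values cover the spread among these samples alone, part of which may be technical.

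Gastrin is a peptide hormone made by the G cells of the antrum. It acts through the CCK-B receptor on enterochromaffin-like cells, the histamine-storing endocrine cells of the fundic glands, and on parietal cells, which pump acid. The histamine is made by histidine decarboxylase (Hdc) and stored in granules that contain chromogranins, and it drives the parietal cells to move the gastric proton pump to the apical membrane. Gastrin is also a growth factor for the fundic mucosa, and somatostatin from D cells restrains this axis.

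Each transcript was read by 1 or more probe sets, sets of short oligonucleotides, and the deposited intensities are in arbitrary units. Array medians lay between 403 and 414 on the 6 arrays. Intensities under 16 were raised to 16 before taking log2, and a probe set was called when its adjusted p in limma was under 0.05. A level within 75 to 95, depending on the array, was taken as noise. By that rule 470 of 22626 probe sets (2.08%) were called, 160 higher in the knockout (0.707%) and 310 lower (1.37%). Groups that do not overlap were far more common, at 22.6% of probe sets, and all 470 called probe sets were among them. The calls came from 397 genes. Past 2-fold there were 38 higher and 87 lower. The median difference over all probe sets was 0 on the log2 scale. With only the 6 arrays in the fit, 22 probe sets were called, and with the Gapdh 3'-to-5' ratio as a covariate 47. That ratio, a measure of RNA integrity, was 1.51, 2.00 and 0.983 on the wild-type arrays and 1.18, 1.10 and 1.01 on the knockout arrays. Its part in the results was not tested beyond that covariate. None of 7 sex-linked genes measured, among them Xist, Eif2s3y, Kdm5d and Uty, was called on any probe set. Their summed intensity, 1 probe set per gene, was 8152, 9086 and 8475 on the wild-type arrays and 8577, 9365 and 8758 on the knockout arrays. The part of sex was not tested.

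Promoter sequences are shown for the histamine-synthesis gene and the endocrine genes with the firmest falls, since gastrin is known to act on the promoters of Hdc and Chga and cyclic AMP on that of Sst. Each is the 250 bases before the RefSeq transcription start, read 5′ to 3′ on the gene's own strand, from mouse build GRCm38.p6. Capitals mark matches to the cyclic AMP response element TGACGTCA, its shorter form TGACG and the GC box GGGCGG, searched on both strands. The Hdc window is chr2:126618679-126618928 on the minus strand, the Chga window chr12:102554691-102554940 on the plus strand, and the Sst window chr16:23890845-23891094 on the minus strand.
Hdc: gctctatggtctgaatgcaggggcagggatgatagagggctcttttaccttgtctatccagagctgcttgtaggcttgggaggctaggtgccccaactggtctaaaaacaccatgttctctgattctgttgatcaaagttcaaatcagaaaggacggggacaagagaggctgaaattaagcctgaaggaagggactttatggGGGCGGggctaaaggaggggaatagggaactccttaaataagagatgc
Chga: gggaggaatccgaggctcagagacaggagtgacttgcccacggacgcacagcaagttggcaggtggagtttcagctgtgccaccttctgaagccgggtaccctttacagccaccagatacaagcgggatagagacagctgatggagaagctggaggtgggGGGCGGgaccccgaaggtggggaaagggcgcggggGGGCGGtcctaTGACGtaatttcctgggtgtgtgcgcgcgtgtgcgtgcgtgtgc
Sst: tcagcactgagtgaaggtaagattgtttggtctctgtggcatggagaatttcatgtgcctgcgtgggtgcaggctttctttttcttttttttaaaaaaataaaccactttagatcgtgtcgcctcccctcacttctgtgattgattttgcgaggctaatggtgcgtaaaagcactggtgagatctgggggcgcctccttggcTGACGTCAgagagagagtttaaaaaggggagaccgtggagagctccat
The Sst window holds the full response element at -48 to -41 from the start, within which the short form is found on each strand. The Chga window holds the short form at -44 to -40 and GC boxes at -90 to -85 and -55 to -50, and the Hdc window holds a GC box at -48 to -43. Of 32851 mouse promoter windows, 1.55% hold the full element, 17.8% the short form and 32.7% the GC box. These matches describe the letters and are not evidence of a bound factor.

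The targeted gene read as the labels say. Gast was at 596, 318 and 823 on the wild-type arrays and at 37, -8 and 31 on the knockout arrays, which are all within noise. It was at least 5.92-fold lower in the knockout (adjusted p = 0.00236). Gastrin is known mainly as an antral product.

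Hdc, the histamine-making enzyme, fell into the noise on 1 of its 2 probe sets. On that one it was at 490, 686 and 416 in wild type and at -40, -48 and -90 in the knockout. The groups lay far apart, with every knockout array below 0, and Hdc was at least 5.71-fold lower (adjusted p = 9.76e-06). This call held in each of the 6 fits that left out an array and in each of the 10 alternatives of processing. The other Hdc probe set was at 413, 672 and 717 in wild type and 212, 73 and 22 in the knockout, where 212 is above the noise, and missed the threshold (log2 difference -3.06 ± 0.85, SE; adjusted p = 0.106).

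Chga encodes chromogranin A, the granule protein used as a general marker of endocrine cells. It was at 6049, 10288 and 7063 in wild type and at 2041, 2125 and 2098 in the knockout. The knockout arrays lay close together and well below the lowest wild-type array, a log2 difference of -1.86 ± 0.21 (adjusted p = 0.00898). With the Gapdh ratio as a covariate the adjusted p of Chga was 0.0521. Resp18, a luminal protein of endocrine secretory granules, was at 343, 480 and 525 against 181, 152 and 92 and fell by 1.70 ± 0.34 on the log2 scale (adjusted p = 0.0434). The Resp18 call was lost in each of the 6 fits without an array. Of the 14 granin and prohormone-processing genes measured, these 2 fell and none rose, with a median of -0.13. Over all 12393 genes, each by its brightest probe set, 1.46% were lower and 0.807% higher, and 24.4% had groups that do not overlap. Chgb, the sister granin, was at 877, 1927 and 935 against 573, 610 and 364 without passing (adjusted p = 0.155), and Scg5, a chaperone of a prohormone convertase, at 503, 544 and 486 against 296, 308 and 240 (adjusted p = 0.118).

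Sst was the only one of 19 gut hormone and amine genes called on its brightest probe set (5.26%, where 1.46% of all genes were lower). It read 16905, 23726 and 15346 in wild type and 5681, 8169 and 6216 in the knockout, a log2 difference of -1.47 ± 0.20 (adjusted p = 0.0132), and held in all 6 fits without an array. With the Gapdh ratio as a covariate its adjusted p was 0.0636. Somatostatin is the product of D cells, which are distinct from enterochromaffin-like cells. Ghrl, which encodes ghrelin, the hormone of the X/A-like endocrine cells, was at 35686, 42846 and 33541 against 30263, 28305 and 30624 and did not pass (adjusted p = 0.15). The median of the hormone list was 0.13, and 12 of its genes had a difference above 0.

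The machinery shared by endocrine cells gave no calls. None of the 10 endocrine transcription factors and none of the 19 genes of vesicle release passed, in either direction. Insm1, a zinc-finger factor of endocrine differentiation, was at 205, 184 and 191 against 104, 24 and 148 (adjusted p = 0.229). In bulk RNA fewer cells of a type and less RNA per cell cannot be told apart, here and for each cell type below. Of the 15 genes on the path from gastrin to histamine, Gast was called by its brightest probe set and Hdc by its dimmer one. The receptor gene Cckbr was at 639, 665 and 488 against 237, 304 and 374 on 1 probe set (log2 difference -0.98 ± 0.22, adjusted p = 0.0582) and overlapped on the other. Cckar, the related CCK-A receptor, was at 2273, 3080 and 2877 against 1881, 1673 and 2045 (adjusted p = 0.0764).

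**Figure D1:**
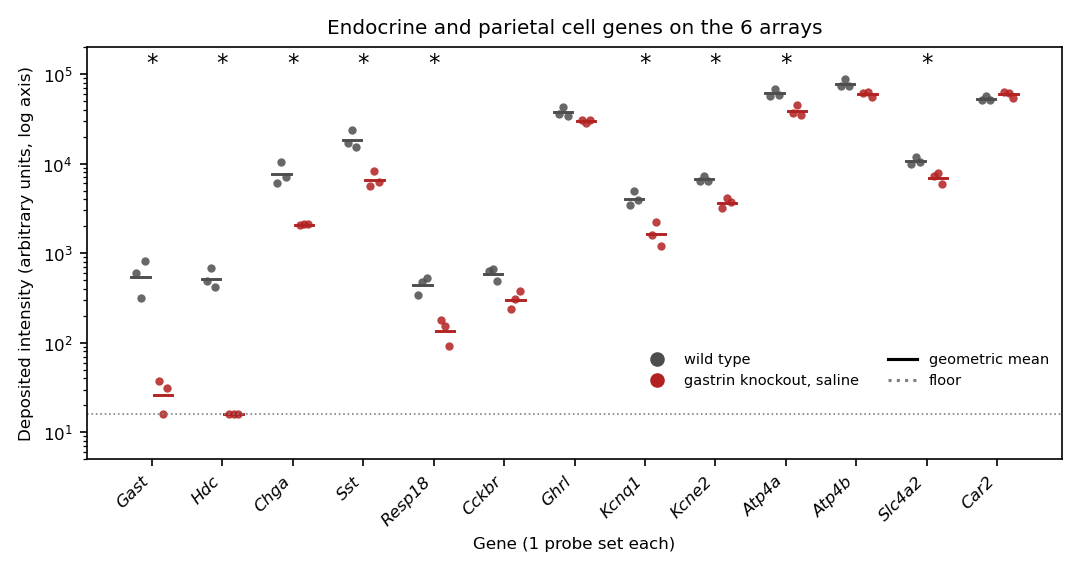
Deposited intensity (log axis, arbitrary units) of 13 endocrine and parietal cell genes, 1 probe set each, on 3 wild-type arrays (grey) and 3 saline-infused knockout arrays (red); short lines are geometric means, the dotted line is the floor of 16, and asterisks mark probe sets with adjusted p under 0.05. The Hdc points of the knockout all sit on the floor, the 3 Chga points lie between 2041 and 2125, and Ghrl and Car2 carry no asterisk.

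Parietal cell genes fell in part. Of 10 proton pump and potassium channel genes, 3 fell, none rose and the median was -0.35, where 1.46% of all genes were lower. Atp4a, the subunit that carries the pump's catalytic site, was at 56627, 68031 and 58071 in wild type and 36260, 44845 and 35107 in the knockout (log2 difference -0.66 ± 0.11, adjusted p = 0.0256). Kcnq1, the pore of the apical channel that recycles potassium to the pump, was at 3463, 4991 and 3913 against 1598, 2221 and 1216 (-1.32 ± 0.24, adjusted p = 0.0301). Kcne2, its auxiliary subunit in parietal cells, was at 6425, 7310 and 6363 against 3202, 4085 and 3680 (-0.88 ± 0.13, adjusted p = 0.0191). As with every call, none of these overlapped between groups, and both subunits of the channel fell. The Atp4a and Kcnq1 calls were kept in 2, and the Kcne2 call in 3, of the 6 fits without an array. Atp4b, the beta subunit of the pump, was at 72503, 88740 and 73558 against 61331, 63565 and 54946 and missed the threshold (-0.38 ± 0.09, adjusted p = 0.0681).

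Among 13 genes of bicarbonate, chloride and water transport, 2 fell (15.4%, where 1.46% of all genes were lower). Slc4a2, the basolateral anion exchanger that removes the bicarbonate left behind by acid secretion, was at 9872, 11787 and 10366 against 7202, 7889 and 5847 (log2 difference -0.62 ± 0.13, adjusted p = 0.0472), a call lost in each fit without an array. Car4, a membrane-bound carbonic anhydrase, was at 263, 289 and 231 against 158, 147 and 157 (-0.76 ± 0.13, adjusted p = 0.0301). Car2, the cytosolic carbonic anhydrase of parietal cells, was at 51157, 56639 and 51279 against 63629, 60980 and 53508, and its groups overlapped. None of 20 genes of parietal cell membrane traffic and cytoskeleton passed, and their median was 0.02.

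Zymogenic and mucous cell markers were called in part. Of 15 chief cell genes 2 fell (13.3%, where 1.46% of all genes were lower). Tnfrsf19, a receptor of the tumour necrosis factor family found in gland-base cells, was at 385, 609 and 511 against 263, 190 and 270 (log2 difference -1.05 ± 0.20, adjusted p = 0.0379), while its 2 dimmer probe sets overlapped. Copz2, a subunit of the coat of retrograde transport vesicles, was at 1145, 1395 and 1105 against 562, 659 and 558 (-1.03 ± 0.22), with an adjusted p of 0.04997, the highest among the calls. Bhlha15, the transcription factor of secretory maturation in chief cells, was at 2466, 2087 and 1910 against 988, 1055 and 1217 without passing (adjusted p = 0.0595). Pgc, the pepsinogen C gene, was at 95519, 106820 and 90805 against 98408, 94278 and 87548, which overlap. Of 15 pit cell genes 13 had a difference above 0, with a median of 0.13. Cldn18, given below, was the 1 called (6.67%, where 0.807% of all genes were higher). Of 11 neck cell and metaplasia genes 9 had a difference above 0, with a median of 0.37. Cd14, also given below, was the 1 called there, and higher (9.09%). The pit cell products Tff1, Gkn1 and Muc5ac overlapped between groups, as did the neck cell product Tff2.

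Glycogen genes were called in both directions. Of 21 glycogen genes 3 fell and 1 rose on their brightest probe set (19.0%, where 2.27% of all genes were called), with a median of -0.06. Ppp1r3c, which targets a phosphatase to glycogen and so activates synthesis, was at 666, 537 and 727 against 193, 167 and 196 (log2 difference -1.79 ± 0.19, adjusted p = 0.0077), although its other probe set overlapped. Gys1, glycogen synthase itself, was at 658, 525 and 685 against 240, 272 and 145 (-1.55 ± 0.25, adjusted p = 0.0227). Its dimmer probe set read 49, 11 and 140 against 122, 227 and 126, opposite in direction and not called (1.66 ± 0.79, adjusted p = 0.308). Phkb, a regulatory subunit of phosphorylase kinase on the breakdown side, was at 1103, 1451 and 1027 against 759, 681 and 645 (-0.77 ± 0.15, adjusted p = 0.0364). Pgm1, which interconverts the glucose phosphates, was at 858, 770 and 844 against 1070, 1200 and 1122 and rose by 0.46 ± 0.09 (adjusted p = 0.0455).

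Ckb, Oxct1, Lmf1 and Apoa4, enzymes or carriers of energy and lipid metabolism that belong to no list here, were among the 30 largest falls. Ckb, the brain-type creatine kinase, was at 13488, 16516 and 12404 in wild type and 6123, 7075 and 4646 in the knockout (log2 difference -1.26 ± 0.17, adjusted p = 0.0138), and its call was kept in 5 of 6 fits without an array. Oxct1, the enzyme that lets mitochondria burn ketone bodies, was called on 3 of its 4 probe sets. The brightest read 14475, 20834 and 14158 against 6959, 7540 and 6595 (-1.21 ± 0.17, adjusted p = 0.0147), and the fourth differed the same way without passing (adjusted p = 0.169). Lmf1, needed for the maturation of lipases in the endoplasmic reticulum, was at 449, 571 and 326 against 187, 154 and 161 (-1.39 ± 0.23, adjusted p = 0.023). Lpl, a lipase that depends on it, was at 1508, 2035 and 1605 against 788, 901 and 673 on the called probe set (adjusted p = 0.0172), and its brighter probe set missed (adjusted p = 0.0887). Apoa4, an apolipoprotein, was at 1475, 2427 and 1906 against 770, 931 and 666 (-1.28 ± 0.21, adjusted p = 0.0236). Its other probe set stood at -1.19 ± 0.27 (adjusted p = 0.059).

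Respiratory chain genes gave a call in each direction on their brightest probe sets (4.65%, where 2.27% of all genes were called). Of its 43 genes, 34 had a difference below 0 and the median was -0.17. On brightest probe sets only Ndufs3, a subunit of complex I, fell, and Uqcrc2, a subunit of complex III, rose. A dimmer probe set of Ndufa10, also of complex I, was called lower at 128, 177 and 121 against -53, 20 and -82 (adjusted p = 0.00898). Its knockout values were all within noise. Ndufs3 was at 10388, 10924 and 10166 against 6545, 7870 and 6125 (log2 difference -0.62 ± 0.12, adjusted p = 0.0388). Uqcrc2 was at 6427, 6811 and 6125 against 8608, 8584 and 8235 (0.39 ± 0.06, adjusted p = 0.0159). Ppargc1a, the coactivator of mitochondrial biogenesis, was at 840, 1142 and 889 against 480, 497 and 392 on 1 probe set (-1.06 ± 0.17, adjusted p = 0.0214). Its 4 dimmer probe sets overlapped between groups, and 3 of them stood at or above 0.

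Vtn, Ccn3, Serpinh1 and Anpep were also among the 30 largest falls. Vtn was the single one called of 19 plasminogen and matrix protease genes (5.26%, where 1.46% of all genes were lower). Vtn, vitronectin, an adhesion protein that also binds a plasminogen activator inhibitor, was at 581, 702 and 763 against 144, 210 and 111 (log2 difference -2.18 ± 0.26, adjusted p = 0.00988), and its second probe set fell too (-0.92 ± 0.15, adjusted p = 0.0219). Ccn3, a matricellular growth regulator, fell on both probe sets. The brighter one read 493, 519 and 524 against 196, 186 and 165 (-1.49 ± 0.18, adjusted p = 0.0101), and the other 328, 427 and 449 against 101, 99 and 95 (-2.02 ± 0.12, adjusted p = 0.000163). Serpinh1, the collagen chaperone, was at 1488, 1559 and 1527 against 605, 597 and 777 (-1.22 ± 0.13, adjusted p = 0.00898), and its second probe set fell alike (-1.19 ± 0.19). Anpep, an aminopeptidase of apical membranes, was at 3539, 5406 and 4223 against 1725, 1458 and 1963 (-1.34 ± 0.17, adjusted p = 0.0117). These calls, apart from the second probe sets of Vtn and Serpinh1, held in all 6 fits without an array.

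The fall of Serpinh1 stood beside a lower reading of connective tissue as a whole. Of 34 collagen and matrix genes, 30 had a difference below 0, with a median of -0.32, but none was called on its brightest probe set. The summed intensity of this list was 35847 to 40937 on the wild-type arrays and 24811, 22675 and 36914 on the knockout arrays, so knockout replicate 3 lay at the wild-type level. Col1a1 was at 948, 979 and 874 against 531, 409 and 883, which overlap. A dim probe set of Col4a5 was the single one of these genes called, at 363, 335 and 350 against 254, 250 and 224 (log2 difference -0.53 ± 0.08, adjusted p = 0.0164). Smooth muscle, endothelial and nerve genes, 23 in number, had a median of -0.36 with no calls, and stood at -0.32, -0.48 and 0.07 on knockout replicates 1, 2 and 3. The part of the amount of connective tissue scraped was not tested.

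**Figure D2:**
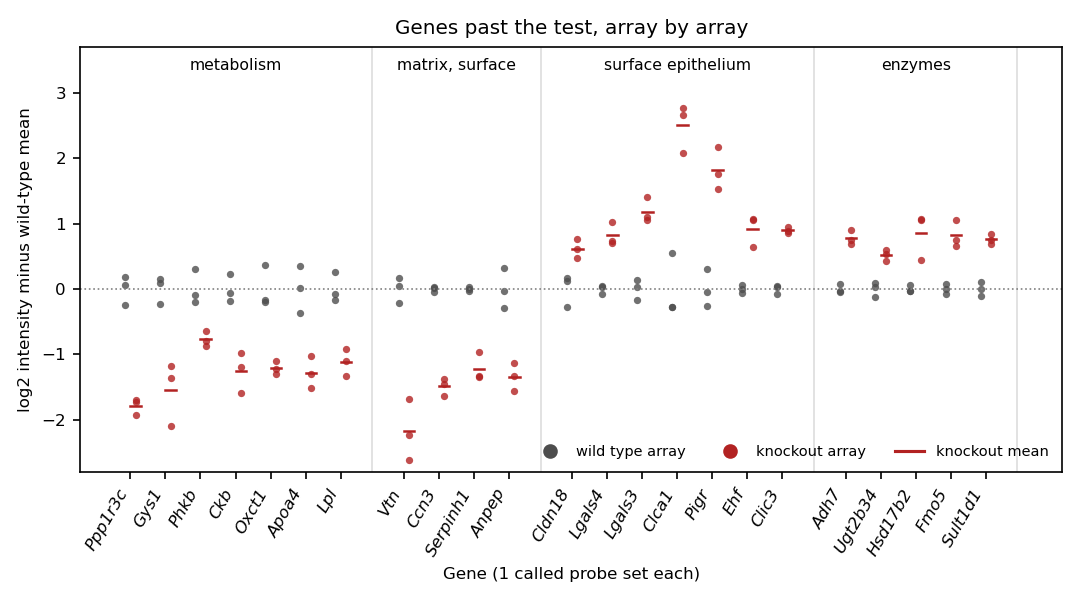
Log2 intensity of each array minus the wild-type mean for 23 genes with a called probe set, 1 each, placed by the known role of each gene; grey points are wild-type arrays, red points knockout arrays, and red lines knockout means. Knockout means run from -2.18 for Vtn to 2.50 for Clca1, and the 3 knockout points lie closer together for Clic3 than for Clca1 or Vtn.

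Clca1 had the largest rise of the named genes. Clca1, a secreted protein of goblet cells that processes mucus, was at 2343, 1323 and 1329 in wild type and 10093, 10963 and 6792 in the knockout, a log2 difference of 2.50 ± 0.42 (adjusted p = 0.0258). Its dim second probe set read 52, 2 and 81 against 113, 82 and 55, which overlap (adjusted p = 0.441). Lgals4, a galectin of the intestinal lining, was at 10214, 9324 and 10109 against 16476, 20001 and 16003 (0.82 ± 0.16, adjusted p = 0.0406). Clca1 and Lgals4 were the 2 called of 18 intestinal and goblet genes (11.1%, where 0.807% of all genes were higher). Of the 18, 12 had a difference above 0, and the list median was 0.32. Cdx1 and Cdx2, the transcription factors that define intestinal epithelium, were within noise on all 6 arrays. Lgals3, a related galectin of surface epithelium and macrophages, was at 4307, 3464 and 3995 against 8098, 10309 and 8336 (1.18 ± 0.23, adjusted p = 0.0406). The Lgals3 and Lgals4 calls were lost in each fit without an array, while the Clca1 call was kept in 2 of 6.

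Barrier genes gave a call higher and none lower on their brightest probe sets. Of 22 tight junction genes 16 had a difference above 0, with a median of 0.26. On brightest probe sets 1 was called (4.55%, where 0.807% of all genes were higher). That was Cldn18, the claudin of the stomach lining, at 19497, 20231 and 14831 against 30554, 27383 and 24963 (log2 difference 0.61 ± 0.12, adjusted p = 0.0406). Its other probe set overlapped. Cldn4 was at 221, 148 and 138 against 376, 370 and 526 without passing (adjusted p = 0.113). Ehf, an epithelial transcription factor of the ETS family, was at 528, 487 and 504 against 1066, 787 and 1050 (0.92 ± 0.13, adjusted p = 0.0146). Its other 2 probe sets stood at 0.37 ± 0.13 and 0.67 ± 0.20 without passing. Sox2, which marks foregut identity and stem cells, was at 300, 239 and 300 against 429, 422 and 444 (0.63 ± 0.12, adjusted p = 0.0326). Ehf and Sox2 were the 2 of 22 epithelial transcription factors called on their brightest probe set (9.09%, where 0.807% of all genes were higher). Counting any probe set, 3 of the 22 had a call.

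Clic3, Ceacam1, Cysrt1 and Ctsc, in none of the lists, were among the 30 largest rises. Clic3, of the chloride intracellular channel family, was at 779, 786 and 726 against 1375, 1417 and 1464 (log2 difference 0.89 ± 0.12, adjusted p = 0.0134) and held in all 6 fits without an array. Ceacam1, an adhesion molecule of apical membranes, was at 613, 487 and 595 against 954, 1008 and 1098 (0.86 ± 0.15, adjusted p = 0.0264); 2 of its 8 probe sets were called. Cysrt1, a cysteine-rich protein, was at 1991, 1467 and 1424 against 2907, 3071 and 2739 (0.85 ± 0.15, adjusted p = 0.0268), and its brighter probe set differed the same way without passing (adjusted p = 0.118). Ctsc, a lysosomal protease that activates granule proteases, was at 2637, 2125 and 2485 against 4511, 4422 and 4083 (0.85 ± 0.13, adjusted p = 0.0191).

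Mucosal defence showed a handful of rises. Of 26 genes of mucosal immunity 3 rose, Pigr and Tlr4 among them, none fell and the median was 0.42, where 0.807% of all genes were higher. Pigr, the receptor that carries antibodies across the epithelium, was at 967, 657 and 759 against 2261, 2638 and 3536 (log2 difference 1.82 ± 0.27, adjusted p = 0.0168), and its second probe set rose too (1.64 ± 0.30, adjusted p = 0.0311). Tlr4, the receptor for bacterial lipopolysaccharide, was at 450, 530 and 508 against 803, 654 and 676 (0.52 ± 0.10, adjusted p = 0.0364). Cd14, its co-receptor, listed here with myeloid and with neck cell genes and not with the 26, was at 757, 623 and 689 against 916, 1053 and 977 (0.51 ± 0.10, adjusted p = 0.0462). Birc3, an inhibitor of apoptosis downstream of such receptors and in none of these lists, was at 612, 558 and 496 against 1043, 933 and 949 (0.82 ± 0.09, adjusted p = 0.00887). The Birc3 call held in all 6 fits without an array, and those of Tlr4 and Cd14 in none. The other Birc3 probe set differed the same way without passing.

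Leukocyte markers gave few calls. None of 10 B and plasma cell genes, 19 T and natural killer cell genes, 11 class II or 15 class I antigen presentation genes was called. Of the class I genes 8 did not overlap (53.3%, against 24.4% of all genes), 7 of them higher, with a median of 0.23. That list's median was 0.33, 0.18 and 0.09 on knockout replicates 1, 2 and 3. Of the class II genes 1 did not overlap, with a median of 0.04. Cd14 was the single one called of 20 myeloid genes (5.0%, where 0.807% of all genes were higher), whose median was -0.02. Of 13 mast cell genes Kit was called, and lower (7.69%, where 1.46% of all genes were lower). It was at 956, 1043 and 989 against 675, 718 and 637 (log2 difference -0.56 ± 0.08, adjusted p = 0.0146). Kit is also the receptor of the pacemaker cells of the gut wall, and its dimmer probe set overlapped.

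Interferon-induced genes stood apart on 1 array. Of 31, 28 had a difference above 0 with a median of 0.55. Only Irf1 was called on its brightest probe set (adjusted p = 0.0491), or 3.23%, where 0.807% of all genes were higher. Counting any probe set, 3 of these genes had a call, all higher, among them Dhx58 with both groups within noise. The list median against the wild-type mean was 1.12 on knockout replicate 1 and 0.33 and 0.29 on replicates 2 and 3. Without replicate 1 the group median was 0.24. Ifit1, a sensor of viral RNA, was at 806, 744 and 529 in wild type and 5099, 1355 and 1316 in the knockout, where the first array is the high one (adjusted p = 0.176).

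Enzymes that handle drugs, steroids and aldehydes rose in part. Of 45 such genes 3 rose on their brightest probe set (6.67%, where 0.807% of all genes were higher) and none fell. Hsd17b2, which inactivates oestradiol and testosterone, was at 1903, 2035 and 1915 against 4064, 4102 and 2654 (log2 difference 0.86 ± 0.17, adjusted p = 0.0393). Ugt2b34, a glucuronosyltransferase, was at 13571, 14198 and 12298 against 20151, 19346 and 17967 (0.52 ± 0.08, adjusted p = 0.0219). Ces1g, a carboxylesterase, was at 78, 85 and 100 against 216, 193 and 254 (1.33 ± 0.16, adjusted p = 0.0101). Adh7, Fmo5 and Sult1d1 rose outside that count. Adh7, the gastric alcohol and retinol dehydrogenase, was at 3255, 3505 and 3211 against 6199, 5341 and 5588 (0.78 ± 0.12, adjusted p = 0.0169). Fmo5, a flavin monooxygenase, was at 1042, 1107 and 995 against 2168, 1753 and 1656 (0.82 ± 0.14, adjusted p = 0.0293). The Fmo5 call was lost in each fit without an array, and the Hsd17b2 call was kept in 1 of 6. Sult1d1, a sulfotransferase, was at 1418, 1649 and 1518 against 2727, 2556 and 2456 (0.76 ± 0.09, adjusted p = 0.00898), and held in all 6 fits without an array. Adh7, Fmo5 and Sult1d1 each have another probe set, for Adh7 the brighter one, which differed the same way without passing.

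Squamous epithelium genes read high on some arrays only. The mouse forestomach is lined by keratinised squamous epithelium next to the fundus. All 29 squamous genes measured had a difference above 0 and the median was 1.05, the highest of the 48 lists. The list median against the wild-type mean was 1.80 on knockout replicate 1, 0.00 on replicate 2 and 1.84 on replicate 3. The summed intensity was 34752 to 59584 on the wild-type arrays and 101308, 45850 and 112601 on the knockout arrays, so replicate 2 lay within the wild-type range. Krt5, a keratin of basal squamous cells, was at 1230, 588 and 506 against 2544, 316 and 3149, and Krt13, of the suprabasal layers, at 1453, 666 and 462 against 5391, 1171 and 4370. Neither passed.

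Of the 29 squamous genes 3 were called, all higher (10.3%, where 0.807% of all genes were higher). Ly6d, a small surface protein, was at 2308, 1698 and 1749 in wild type and 4627, 3787 and 4313 in the knockout (log2 difference 1.15 ± 0.24, adjusted p = 0.0484). Perp, a desmosome protein also made in simple epithelia, was at 5174, 4314 and 4665 against 6980, 6408 and 6773 (0.51 ± 0.08, adjusted p = 0.0199). S100a14, a calcium-binding protein of epithelia, was at 2190, 1655 and 2037 against 2846, 2929 and 3032 (0.59 ± 0.10, adjusted p = 0.0301). Whether squamous tissue in the scrapings has a part in these and the other rises was not tested.

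**Figure D3:**
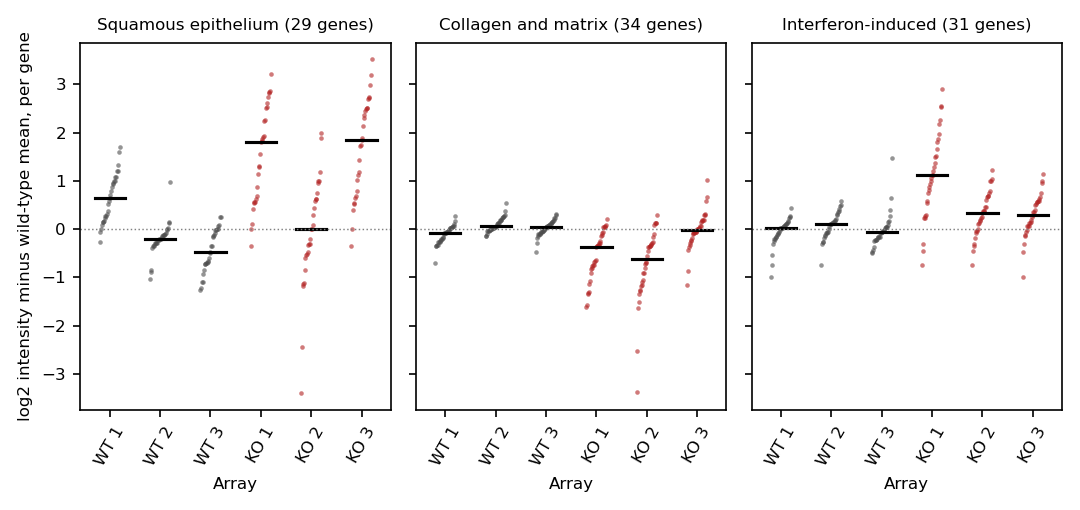
Log2 intensity minus the wild-type mean for each measured gene of the squamous epithelium, collagen and matrix, and interferon-induced lists, on wild-type (WT, grey) and knockout (KO, red) arrays; black lines are list medians. Knockout replicate 2 sits at the wild-type level for squamous genes, replicate 3 sits near it for collagen genes, and replicate 1 is the highest for interferon-induced genes with a median of 1.12.

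Growth and patterning genes gave few calls. None of 12 epidermal growth factor family genes, 7 Reg lectins, 24 Wnt and Notch genes, 32 DNA replication genes or 30 mitosis genes was called. Tgfa, the receptor ligand made by parietal and surface cells, was at 822, 982 and 907 against 1500, 1748 and 1356 and just missed (log2 difference 0.76 ± 0.16, adjusted p = 0.0533). All 7 Reg genes had a difference above 0, with a median of 0.42. They were all dimmer than the median probe set, and 1 was within noise on all 6 arrays. Replication genes had a median of 0.25 and mitosis genes one of 0.16, but knockout replicate 1 stood at 0.06 and -0.17. Ccnd2, a cyclin of the first growth phase, was called lower on 2 of its 7 probe sets, one of which read 1829, 2353 and 1648 against 781, 936 and 823 (-1.19 ± 0.22, adjusted p = 0.0325). Id2, an inhibitor of helix-loop-helix factors and a target of bone morphogenetic proteins, was at 1646, 1597 and 1592 against 2612, 2595 and 2141 (0.60 ± 0.12, adjusted p = 0.0427). It was the single one called of 21 hedgehog and bone morphogenetic protein genes (4.76%, where 0.807% of all genes were higher).

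Other genes with large rises had a range of roles. Hbb-b2, a beta globin, was at 93, 185 and 137 against 423, 429 and 508 (log2 difference 1.76 ± 0.25, adjusted p = 0.0146), and its second probe set overlapped (adjusted p = 0.595). It was the single one called of 8 blood genes (12.5%, where 0.807% of all genes were higher), whose median was 0.02. Rbm47, an RNA-binding protein of epithelia, was at 402, 397 and 723 against 1222, 1401 and 1417 (1.46 ± 0.27, adjusted p = 0.0337), while its other probe set was within noise. Bco2, which cleaves carotenoids in mitochondria, was at 152, 235 and 213 against 480, 481 and 541 (log2 difference 1.35 ± 0.16, adjusted p = 0.0101). Stk25, a stress-responsive kinase of the Golgi, was at 1026, 976 and 1393 against 2824, 2504 and 2741 (1.27 ± 0.16, adjusted p = 0.0112). Cybrd1, a ferric reductase of apical membranes, was at 481, 477 and 411 against 1056, 956 and 816 (1.04 ± 0.13, adjusted p = 0.0101). Of 19 iron genes it was the single one called (5.26%, where 0.807% of all genes were higher). Pdia4, a disulfide isomerase of the endoplasmic reticulum, was at 996, 981 and 1230 against 1906, 2263 and 2389 (1.03 ± 0.16, adjusted p = 0.0192). The other Pdia4 probe set differed the same way without passing. On brightest probe sets 31 other genes of folding and secretion were not called (3.12% called, where 0.807% of all genes were higher). Rab4a, a GTPase of early endosomes, was at 695, 670 and 473 against 1153, 1156 and 916 (0.82 ± 0.15, adjusted p = 0.032), and its other probe set differed the same way without passing. D17H6S56E-5 was at 2007, 2426 and 2087 against 4367, 3734 and 3850 (0.88 ± 0.18, adjusted p = 0.0486), and its second probe set differed the same way without passing (adjusted p = 0.362). Junb and Btg2 were called higher among 22 immediate early genes (9.09%, where 0.807% of all genes were higher). Junb, a subunit of AP-1, was at 1404, 1232 and 1680 against 2857, 2635 and 2286 (0.86 ± 0.17, adjusted p = 0.0415), and the second Btg2 probe set overlapped.

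Among the falls, Gpr155, a lysosomal cholesterol sensor, was at 2012, 2232 and 1932 against 753, 1034 and 635 (log2 difference -1.38 ± 0.19, adjusted p = 0.0136). Cyp4v3, a fatty acid hydroxylase, fell on both probe sets, at 573, 505 and 633 against 235, 232 and 228 on the dimmer one (-1.29 ± 0.16, adjusted p = 0.0104). Gabarapl1, of the autophagosome-building family, was at 2455, 3529 and 3162 against 1242, 1518 and 1047 (-1.26 ± 0.20, adjusted p = 0.022), and its brighter probe set missed (adjusted p = 0.0816). Cxxc5, a zinc-finger repressor of Wnt signals, was called on both probe sets and read 816, 991 and 858 against 332, 521 and 291 on the dimmer one (-1.26 ± 0.21, adjusted p = 0.0246). Slc7a5, a carrier of large neutral amino acids, was at 935, 1115 and 1055 against 570, 468 and 346 (-1.19 ± 0.25, adjusted p = 0.0475). Fam83g was at 864, 864 and 1028 against 314, 476 and 384 (-1.25 ± 0.18, adjusted p = 0.0157), and its other probe set differed the same way without passing. Adssl1, the muscle-type enzyme of adenine nucleotide synthesis, was at 453, 691 and 508 against 164, 208 and 213 (-1.48 ± 0.26, adjusted p = 0.0301). Pnliprp1, a lipase-related protein of the pancreas, was at 2488, 3010 and 2689 against 1551, 1180 and 1585 (-0.93 ± 0.12, adjusted p = 0.0112). Rnase1 was the other gene called, also lower, of 16 pancreas acinar genes (12.5%, where 1.46% of all genes were lower). The median of that list was -0.32.

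Several of the largest differences rested on 1 probe set while another of the same gene did not pass. Ctse, cathepsin E of surface cells, was called lower at 2156, 3628 and 6557 against 1296, 1155 and 970, but its brighter probe set read 59525, 63299 and 55352 against 64672, 66242 and 52357. Ybx1, an RNA-binding protein, was called lower at 418, 474 and 545 against 123, 158 and 241, and its brighter one read 9988, 10008 and 8681 against 8029, 8932 and 8050. Hnrnpc, a splicing factor, was called higher at 384, 490 and 443 against 803, 806 and 815, and its brighter one read 6430, 6950 and 6045 against 6538, 5183 and 6283. Slc35e1, a predicted sugar transporter, Ubxn2a, an adaptor of the unfolding enzyme p97, and Hmgb2, a chromatin protein, split in the same way. Erbin, a scaffold of epithelial junctions, was called at 333, 393 and 418 against 609, 662 and 748, and its brighter probe set overlapped (log2 difference 0.39 ± 0.16). Snrpd3, a core spliceosome protein, was called at 625, 470 and 545 against 1118, 1308 and 1523, and a second probe set at 672, 666 and 554 against 671, 727 and 571. Bace1, a membrane protease, fell on 1 of 4 probe sets. For these genes the level of the transcript as a whole was not settled.

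Genes next to the knocked-out one were looked at separately, since alleles made in another strain can carry that strain's flanking sequence. The order of genes was taken from assembly GRCm38.p6. Within 25 genes on each side of Gast, 1 of 34 measured genes was called (2.94%), and within 100 genes 2 of 128 (1.56%), against 2.27% of all genes counted by their brightest probe set. The called ones were Gm11567, higher at 199, 129 and 179 against 288, 290 and 269, and Slc25a39, a mitochondrial carrier, lower at 21498, 27240 and 22286 against 17115, 17376 and 15606. A probe set of Dhx58 was also called with every array of both groups within noise.

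Across the other groups the members' levels took different courses, given here as group means ± SD of 3 arrays each, without a test. The order below is wild type, knockout with saline, knockout with gastrin and gastrin-CCK double knockout. Chga was at 7800 ± 2214, 2088 ± 42.9, 10811 ± 2387 and 2583 ± 370. Kcnq1 was at 4122 ± 785, 1678 ± 507, 3886 ± 270 and 3195 ± 651. Anpep was at 4389 ± 944, 1715 ± 253, 3408 ± 326 and 1610 ± 208. Gpr155 was at 2059 ± 155, 807 ± 205, 1107 ± 66.3 and 1823 ± 329, so its level in the gastrin-infused group lay nearer the saline-infused one. Clca1 was at 1665 ± 587, 9283 ± 2200, 2599 ± 255 and 3336 ± 2045, and Pigr at 794 ± 158, 2812 ± 655, 1406 ± 218 and 3191 ± 1097. Bco2 was at 200 ± 43.0 in wild type and at 501 ± 34.9, 501 ± 55.8 and 517 ± 58.2 in the 3 knockout groups, which all lay above it. Ppargc1a, on its called probe set, was at 957 ± 162 in wild type and at 456 ± 56.4, 380 ± 70.0 and 446 ± 45.6 in those groups.

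**Figure D4:**
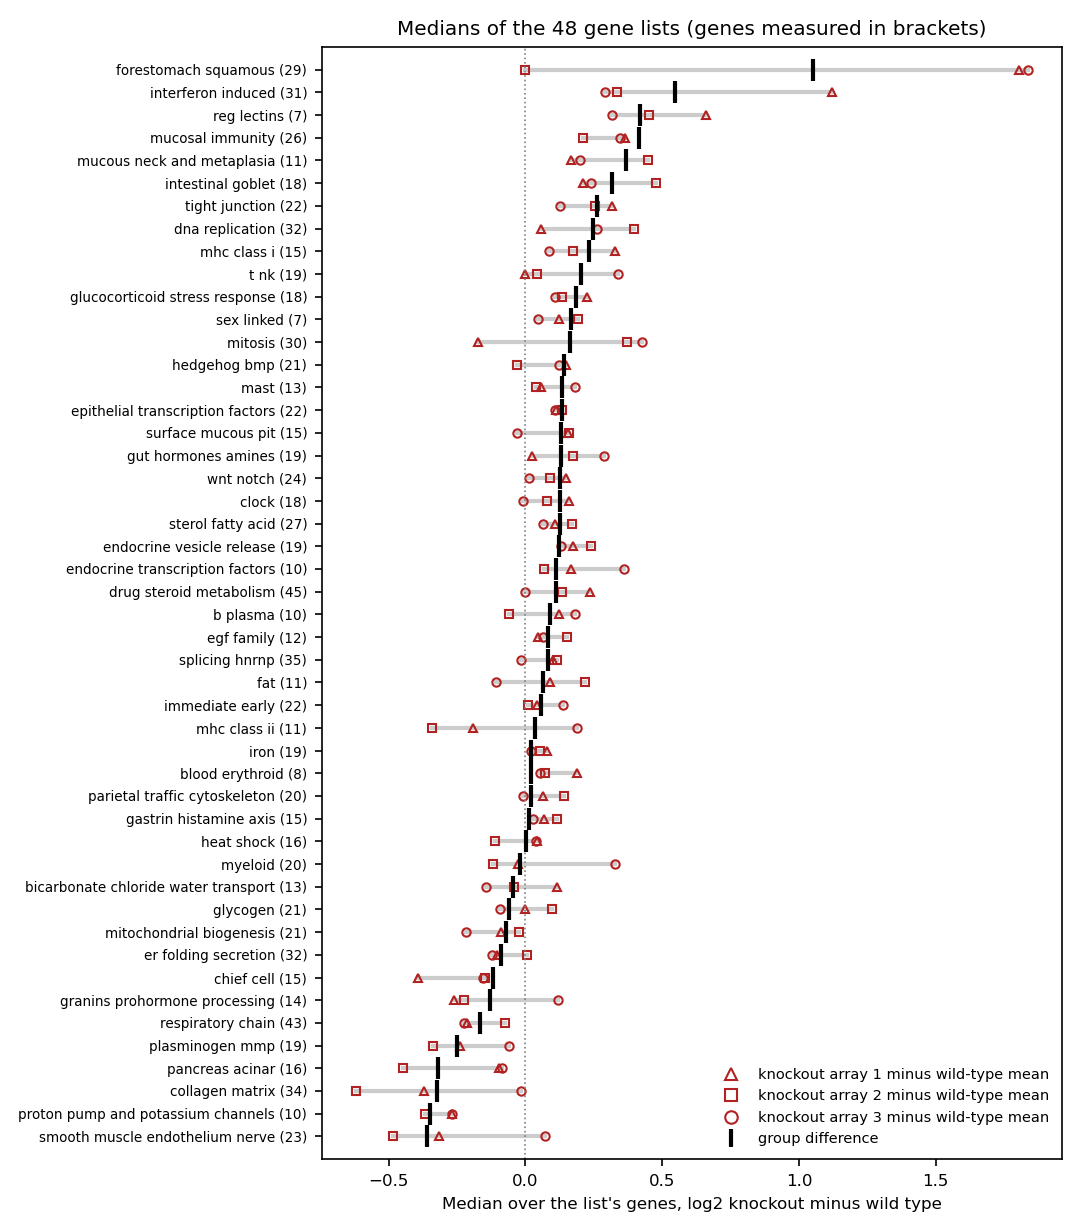
Median log2 difference between saline-infused knockout and wild type for each of the 48 gene lists (black bars, number of genes measured in brackets), with the median of each knockout array minus the wild-type mean as open symbols. Squamous genes have the highest median, 1.05, with replicate 2 at 0; the proton pump and potassium channel list, at -0.35, has all 3 arrays on the same side.

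The firmness of a call differed widely between genes. Of the 470, 67 held in all 6 fits without an array, 17 higher and 50 lower. The calls in those fits ran from 94 without wild-type replicate 2 and 124 without knockout replicate 1 to 285 without wild-type replicate 1. Among the genes above, the calls given for Junb, Ly6d, Slc7a5, D17H6S56E-5, Copz2, Bace1, Ubxn2a and Ccnd2 were lost in each of them. Those given for Lmf1, Adssl1, Ctse, Rbm47, Ybx1, Ceacam1, Cysrt1 and Tnfrsf19 were kept in 1 of 6. Only 7 probe sets were called in every leave-one-out fit and every alternative fitted. They were those of Hdc, Ccn3 (the dimmer one), Cyp4v3 (the dimmer one), Gnaz, Naip5, Prss23 and a probe set without a gene name. The last 3 named genes lay outside the naming rule or its size limit and were picked after their values were seen. Gnaz, a G protein alpha subunit of neural and endocrine cells, was at 142, 105 and 128 against -152, -74 and -20 and was at least 1.37-fold lower. The probe set without a gene name read 84, 102 and 79 against 19, 1 and -66, close to the noise in wild type. For Hdc, Gnaz and that probe set, all or most knockout values were raised to the floor of 16. Values at the floor have no spread, so these p-values are partly set by it. Naip5, an inflammasome sensor of bacterial flagellin, was at 374, 396 and 355 against 94, 124 and 108 (log2 difference -1.79 ± 0.16, adjusted p = 0.00264). Prss23, a secreted serine protease, was at 2473, 2394 and 2547 against 1304, 1167 and 1122 (-1.05 ± 0.11, adjusted p = 0.00707).

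**Figure D5:**
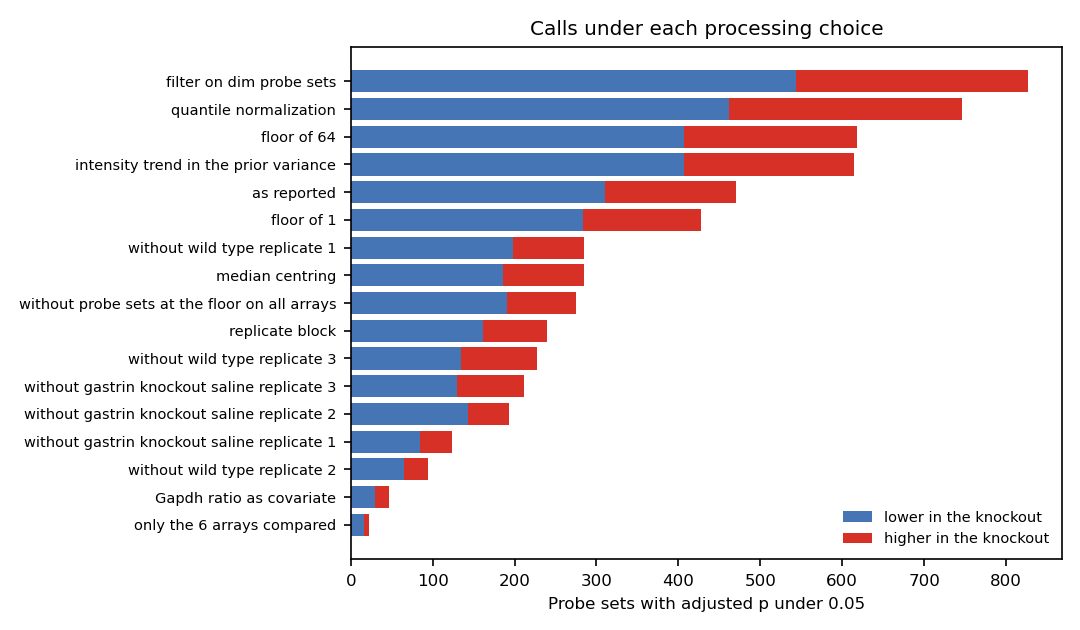
Number of probe sets with adjusted p under 0.05 under each processing choice, stacked as lower (blue) and higher (red) in the saline-infused knockout. The count is 470 as reported, 827 with dim probe sets filtered out and 22 with only the 6 arrays in the fit; lower calls outnumber higher ones in every bar.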

How the data were processed

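Fundic scrapings were measured on 12 arrays, 3 in each of 4 groups. The authors' deposited table gives 1 linear intensity per probe set and array, whole numbers with some below 0; the sources used here do not give the scaling, background treatment or probe-set summary. After removal of 64 control probe sets, 22626 were tested: 20380 with 1 symbol, 691 with several and 1555 not in the probe table, for 12393 genes. Intensities were floored at 16 and log2 taken, without further scaling. A mean per group was fitted over all 12 arrays with limma 3.58.1 in R 4.3.3 (lmFit and eBayes, 8 residual and 1.10 prior degrees of freedom), and p-values were adjusted by Benjamini-Hochberg over all probe sets. Each ± after a log2 difference is its SE, and after a mean the SD.

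An array's noise level was its lowest percentile (1), sign-turned. Where a group or its mean lay within it, the fold is a bound from the higher of noise and value. In lists each gene counts by its brightest probe set, over the 12 arrays. Members, the 48 lists (943 genes measured) and the tests were chosen with earlier results of these data known. Named genes are Gast, list members, and the 30 largest rises and falls among calls with 1 symbol, no overlap and the brighter group mean at or above 417, the median; 3 genes that met this rule, of which 1 is the remaining called gene of the mucosal immunity list, are not reported here. On simulated data for this comparison, with independent normal noise, 200 of 22626 probe sets were changed, all drawn from those at or above the median intensity. Of these, 30.4%, 76.8%, 91.6% and 96.4% were recovered at 1.5-, 2-, 3- and 4-fold. Recovery of dimmer probe sets was not measured. The number of arrays limits precision. Alternatives were 9 planned settings, 1 added after seeing the data, and leaving out each array. Figures used Python 3.11.15 and matplotlib 3.10.9.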

Additional observations from a re-analysis of the deposited data

How the results depend on the processing

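The count of 470 calls, 160 higher and 310 lower, moved with the processing, and no called value of a gene named here changed direction under any alternative run. Filtering out dim probe sets gave 827 calls (284 higher, 543 lower) and quantile normalization 746 (284 higher, 462 lower). Floors of 1 and 64 gave 427 and 618, and an intensity trend in the prior variance 615. Centring each array on its median gave 285 (99 higher, 186 lower), and taking out the 411 probe sets at the floor on all 12 arrays, chosen after seeing the data, 275 (84 higher, 191 lower). The Gapdh ratio as a covariate gave 47 (18 higher, 29 lower), and the 6 arrays alone, with fewer samples to estimate the spread, 22 (6 higher, 16 lower); otherwise the cause was not tested. Leaving out single arrays gave 94 to 285 calls, 29 to 93 higher and 65 to 198 lower. With the replicate number as a block there were 239 calls (77 higher, 162 lower). No label says that the numbers pair the samples. Deviations of same-numbered wild-type and knockout arrays correlated at 0.12, 0.14 and 0.03, and those of differently numbered ones at -0.28 to 0.20. With deviations from means of 3 arrays these values cannot settle whether samples were paired.

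Dim probe sets limit what can be said: 25 calls have a fold bound because a group or its mean lay within noise. In 4 other calls, those of Dhx58, Cntrl, Nr2f1 and Nkx6-1, both groups lay within noise and no bound was set. Some calls with 1 group within noise, such as that of Pstk, have no bound either.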
